A study of Mus musculus with 5 samples.

Results

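Granins and the other genes of dense-core vesicles were examined in N2A cells after knockdown of UPF1, the RNA helicase at the centre of nonsense-mediated mRNA decay (NMD), which removes transcripts with premature or otherwise unusual stop codons. The 10 genes, of 55573 in the count table, were taken by symbol for their known roles. They are the granins Chga, Chgb, Scg2, Scg3, Scg5 and Vgf, the prohormone-processing enzymes Pcsk1, Pcsk2 and Cpe, and the vesicle-priming factor Cadps. Granins are acidic proteins that condense in the trans-Golgi network and fill dense-core vesicles, the organelles from which neuroendocrine cells and neurons release peptides and amines when stimulated. Convertases cut granins and prohormones at pairs of basic residues inside the vesicle, a carboxypeptidase trims the exposed ends, and priming factors make the vesicle ready to fuse. Sympathetic neuroblastoma, the tumour type that N2A represents, is a cell type in which granins serve as clinical markers.

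N2A (Neuro-2A) is a mouse neuroblastoma line. All cells were transfected with 60 pmol of siRNA using the TransIT-X2 reagent. There were 2 libraries from cells given Silencer Negative Control #1 siRNA (siCtl, replicates 1 and 3) and 3 from cells given Upf1 siRNA (siUpf1, replicates 1, 2 and 3), and only 1 cell line and 1 Upf1 siRNA were used. Polyadenylated RNA was sequenced with its strand kept, and the deposited values are reads per gene. Since whole cultures were lysed, fewer cells that express a gene and less of its RNA per cell cannot be told apart.

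The libraries held 20402205 to 27717594 assigned reads. Upf1 itself fell from 5217 and 5243 normalised counts in siCtl to between 2403 and 2496 in siUpf1 (log2 fold change -1.10, SE 0.051; adjusted p by DESeq2, 7.09e-101). Normalised counts are reads divided by DESeq2's size factor for the library, and fold changes are siUpf1 over siCtl. A gene was called higher or lower at an adjusted p-value under 0.05. Of 15191 genes tested, 44.9% were called, 22.0% higher and 22.9% lower, so a call on its own is common in this comparison. Of 13 markers of sympathetic neuroblastoma and neurons, 11 were abundant enough to be tested, while the neurofilament genes Nefl and Nefm had at most 4 reads in any library. Of 10 markers of astrocytes, fibroblasts, leukocytes and epithelia, 5 were tested, Col3a1 had no read, and Aqp4, Epcam, Ptprc and Col1a2 had at most 7. The summed normalised counts of these 10 were 341 to 348 in siCtl and 245 to 278 in siUpf1, and their part in the results below was not tested.

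The promoters of the granins are shown first because several carry the cAMP response element (CRE), the 8-base site for CREB-family transcription factors that is known from work on the chromogranin promoters. The windows searched ran from 250 bases before to 50 bases after the start that RefSeq gives each gene in GRCm38.p6, and 8 of the 10 genes were in that table, Vgf and Cpe not being among them. The whole CRE, TGACGTCA, reads the same on both strands and contains its own 5-base core, TGACG, on each of them. It was found in Chgb, Scg2 and Pcsk1, 3 of 8 genes, and in 2.03% of the 27025 genes of the table. Its first base lay 72 bases before the start of Chgb, 68 before that of Scg2 and 78 before that of Pcsk1. The core was found on either strand in 7 of the 8 genes, all but Cadps, and in 23.0% of all genes. A TATA sequence, TATAAA, was found only in the Chga window, where it began 5 bases after the start, and in 15.7% of all genes. A match describes the letters only, and the binding of no factor was measured here. The 120 bases before the start are given for the 3 genes with a whole CRE and, for comparison, for Chga, whose core lay 44 bases before the start. Capitals mark the CRE or its core, and all are read 5′ to 3′ on the gene's own strand.
Chgb, chr2:132781522-132781641, plus strand: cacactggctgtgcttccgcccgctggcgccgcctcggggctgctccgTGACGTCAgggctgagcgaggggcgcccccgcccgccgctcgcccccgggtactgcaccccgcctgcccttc
Scg2, chr1:79440027-79440146, minus strand: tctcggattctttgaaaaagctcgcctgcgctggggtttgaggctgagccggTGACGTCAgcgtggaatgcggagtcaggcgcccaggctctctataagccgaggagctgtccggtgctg
Pcsk1, chr13:75089737-75089856, plus strand: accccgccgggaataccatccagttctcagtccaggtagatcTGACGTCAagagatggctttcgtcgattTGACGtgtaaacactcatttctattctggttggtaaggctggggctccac
Chga, chr12:102554821-102554940, plus strand: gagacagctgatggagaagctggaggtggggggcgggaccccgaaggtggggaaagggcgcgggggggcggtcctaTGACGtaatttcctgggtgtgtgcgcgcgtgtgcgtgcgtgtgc
Each of the first 3 windows reaches into the gene as GENCODE M21 draws it, since GENCODE starts Chgb, Scg2 and Pcsk1 farther upstream than RefSeq does. GENCODE starts Chgb at base 132781278 of chromosome 2, so its whole printed window, with the CRE, lies inside the gene. The CRE of Scg2 also lies inside the gene, which GENCODE starts at base 79440120 of chromosome 1. Only the CRE of Pcsk1 lies upstream of the GENCODE start, base 75089826 of chromosome 13. GENCODE starts Chga farther downstream than RefSeq does, at base 102554969 of chromosome 12. By that start both the core and the TATA sequence of Chga lie upstream of the gene. The distances in all of these genes thus depend on the annotation. The genes with a whole CRE did not behave alike in the libraries, as the values that follow show. Scg2 had the largest increase among the 10 genes, Chgb the smallest among those called, and Pcsk1 was nearly silent.

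**Figure D1:**
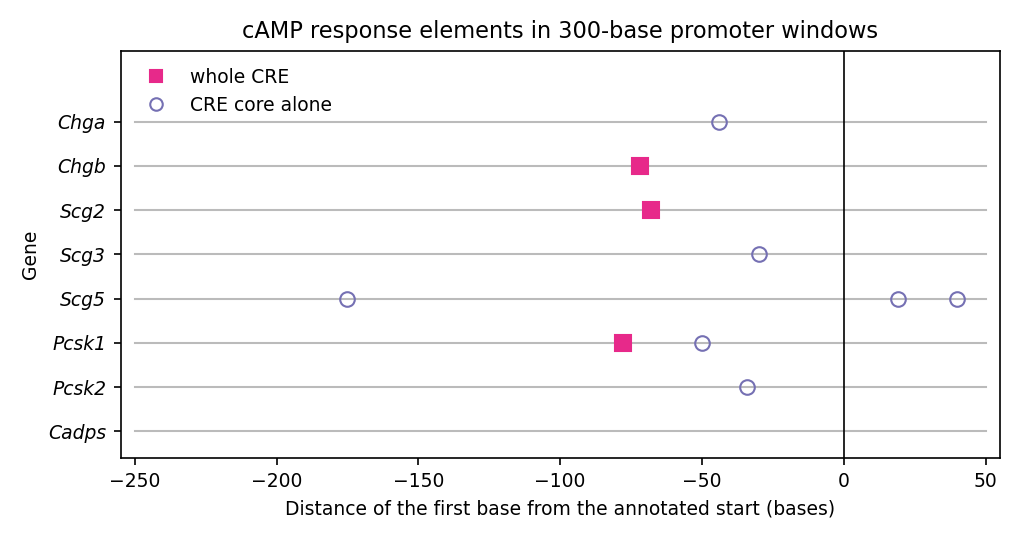
Positions of CRE matches in the promoter windows of the 8 genes found in the RefSeq table. The x axis is the distance in bases of the first base of a match from the RefSeq start (vertical line). Squares are whole CREs and open circles are cores outside a whole CRE. The whole CREs of Chgb, Scg2 and Pcsk1 lie between 68 and 78 bases before the RefSeq start, and Cadps has no match. By the GENCODE starts, those of Chgb and Scg2 lie inside the gene.

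The 10 mRNAs ran from some of the most abundant in these cells to some that were hardly detected. To compare genes, normalised counts were divided by the gene's kilobases of exon and scaled to a mean library of 1000000 normalised counts, and this quantity is called the level. In siCtl the order of the mean levels was Vgf, Scg2, Chgb, Scg3, Chga, Cpe, Scg5, Pcsk2, Pcsk1 and Cadps. The level of Vgf, 198 ± 4.29 (SD, n = 2), exceeded that of 98.9% of the genes tested. The other 5 granins ranged from 103.6 ± 0.850 for Scg2 to 31.6 ± 0.636 for Scg5, and even Scg5 exceeded 89.7% of genes. Cpe, with a level of 33.3 ± 0.182, lay beside Scg5. In contrast, the level of Pcsk2 was 0.322 ± 0.0240, which exceeded that of 10.8% of genes, and Pcsk1 and Cadps were lower still.

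In siCtl no pair of neighbours in this order from Vgf to Pcsk2 overlapped between the libraries, although some lay close together. The levels of Scg2 were 103.0 and 104.2 and those of Chgb 99.7 and 100.05. Cpe had levels of 33.1 and 33.4, just above the 32.1 and 31.2 of Scg5. Pcsk1 and Cadps, with 8 and 4 reads over the siCtl libraries, could not be ranked. In siUpf1 the first 2 places were exchanged, with Scg2 at 159 ± 6.36 (SD, n = 3) and Vgf at 137 ± 9.86, while the places from Chgb to Pcsk2 were the same.

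**Figure D2:**
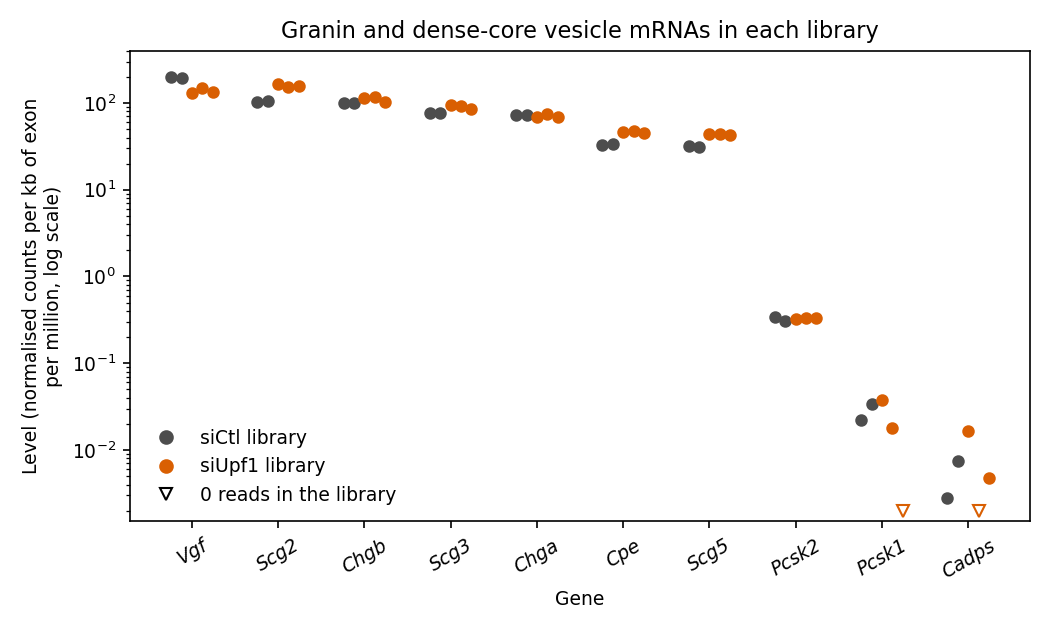
Level of each of the 10 genes in each library, as normalised counts per kilobase of exon in a library scaled to 1000000, on a log scale. Each point is 1 library, siCtl in grey and siUpf1 in orange, and open triangles at the bottom mark libraries with 0 reads. Vgf falls from 198 to 137 on average and Scg2 rises from 103.6 to 159, while Pcsk2, Pcsk1 and Cadps lie far below the others in both groups.

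The question of the comparison was which of these mRNAs change in level when Upf1 is knocked down. Of the 10 genes, 8 had enough reads to be tested, 5 of them were higher in siUpf1 (Scg2, Cpe, Scg5, Scg3 and Chgb), 1 was lower (Vgf) and 2 were not called (Chga and Pcsk2). That is 6 of 8 called, against 44.9% of all genes tested. The groups did not overlap for the same 6 genes, against 69.4% of all genes tested. The median log2 fold change of the 8 genes was 0.20, with a range of -0.53 to 0.62, and that of all genes tested was -0.0024. All of the 8 genes but Pcsk2 were abundant, with siCtl levels above those of at least 89.7% of genes tested. The shares over all genes tested were not matched for this abundance, at which a change as small as the 0.16 of Chgb was called. Since 8 genes are few and were not drawn at random, these shares describe the genes and test nothing about them as a group.

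**Figure D3:**
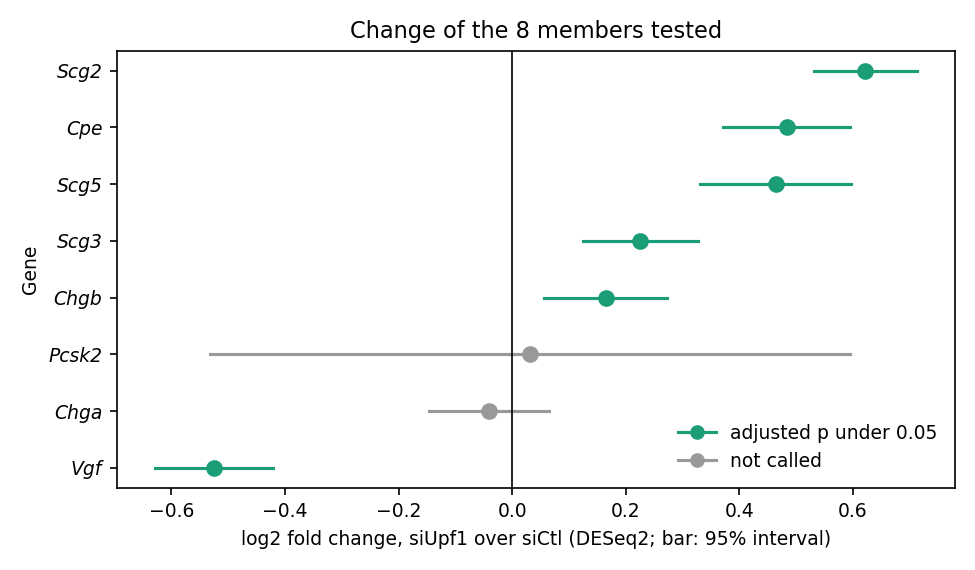
Log2 fold change of siUpf1 over siCtl for the 8 genes tested. Points are DESeq2 estimates and bars their 95% intervals, in green for genes with an adjusted p-value under 0.05 and in grey for the others. Scg2, Cpe, Scg5, Scg3 and Chgb lie above 0, Vgf lies below it, and the intervals of Chga and Pcsk2 include 0.

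Among the granins, Scg2 and Vgf moved most and in opposite directions. Scg2 encodes secretogranin II, the precursor of secretoneurin, on chromosome 1 (79434669 to 79440120, minus strand). It had 6481 and 6557 normalised counts in siCtl and 10485, 9723 and 9891 in siUpf1. All siUpf1 libraries were thus well above both siCtl libraries, which differed little from each other. The mean rose from 6519 ± 53.5 to 10033 ± 400, or to 153.9% of siCtl, with a log2 fold change of 0.62 (SE 0.046, adjusted p = 7.21e-40 by DESeq2). Vgf encodes a nerve growth factor-inducible precursor of several neuropeptides, on chromosome 5 (137026392 to 137033351, plus strand). It had 14937 and 14486 normalised counts in siCtl and 9713, 11067 and 9904 in siUpf1. The siUpf1 libraries were all below siCtl, and replicate 2 was the highest of them. The mean fell from 14712 ± 319 to 10228 ± 733, or to 69.5% of siCtl, with a log2 fold change of -0.53 (SE 0.053, adjusted p = 7.85e-22 by DESeq2).

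Scg5 and Scg3 were also higher in siUpf1. Scg5 encodes the chaperone that the convertase PCSK2 needs to become active, and lies on chromosome 2 (113776362 to 113829121, minus strand). Its normalised counts were 1259 and 1224 in siCtl and 1735, 1712 and 1688 in siUpf1, and the spread within each group was small beside the gap between them. The log2 fold change was 0.46 (SE 0.068, adjusted p = 8.60e-11 by DESeq2). Scg3 encodes secretogranin III, which binds chromogranin A and cholesterol-rich vesicle membrane, and lies on chromosome 9 (75643189 to 75684056, minus strand). Its normalised counts were 5272 and 5316 in siCtl and 6424, 6317 and 5841 in siUpf1. The groups did not overlap, but the lowest siUpf1 library came near siCtl, and the log2 fold change was 0.23 (SE 0.051, adjusted p = 4.57e-05 by DESeq2).

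The chromogranins, by which the family was first known, changed little. Chgb, on chromosome 2 (132781278 to 132795079, plus strand), had 6837 and 6859 normalised counts in siCtl and 7830, 8133 and 7075 in siUpf1. Replicate 3 of siUpf1 was only just above siCtl, and the mean rose from 6848 ± 15.7 to 7679 ± 545. The log2 fold change was 0.16 (SE 0.055, adjusted p = 0.00829 by DESeq2). This call was not stable, since it was lost without siUpf1 replicate 2 (0.12, adjusted p = 0.0708 by DESeq2). It was also lost without siCtl replicate 1 (0.16) or siCtl replicate 3 (0.16). Those fits keep a single siCtl library, and the estimate hardly changed in them. Chga, on chromosome 12 (102554969 to 102565028, plus strand), had 4980 and 5045 normalised counts in siCtl and 4734, 5198 and 4698 in siUpf1. The siUpf1 libraries lay on both sides of siCtl. The log2 fold change was -0.04 (SE 0.054, adjusted p = 0.579 by DESeq2) with a 95% interval of -0.15 to 0.06, so that a change as large as that of Scg2 or Vgf lay outside the interval.

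The granin mRNAs were also summed, to give their joint level and the share of each. The summed level of the 6 granins was 585 and 581 in siCtl and 618, 633 and 590 in siUpf1 (583 ± 2.72 and 614 ± 21.9; exact permutation test, two-sided, p = 0.2). Without division by exon length, the summed normalised counts were 39766 and 39486.5 in siCtl and 40921, 42150 and 39096 in siUpf1. In that sum the groups overlapped (exact permutation test, two-sided, p = 0.6). Granin reads were 0.157% of the assigned reads in each siCtl library and 0.168%, 0.165% and 0.158% in siUpf1. With 2 libraries against 3, the smallest p-value this test can give is 0.2, so no single value of this kind can pass a threshold. Of the summed level, Vgf made up 34.3% and 33.5% in siCtl and 21.1%, 23.5% and 22.6% in siUpf1. The share of Scg2 was 17.6% and 17.9% in siCtl and 27.0%, 24.4% and 26.6% in siUpf1. Thus the ratio of Scg2 to Vgf per kilobase, which does not depend on how libraries are scaled, was 0.513 and 0.535 in siCtl and 1.28, 1.04 and 1.18 in siUpf1. Its mean was 2.22 times as high in siUpf1. Both genes were picked here for their opposite changes, so this ratio is a description and was not tested.

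**Figure D4:**
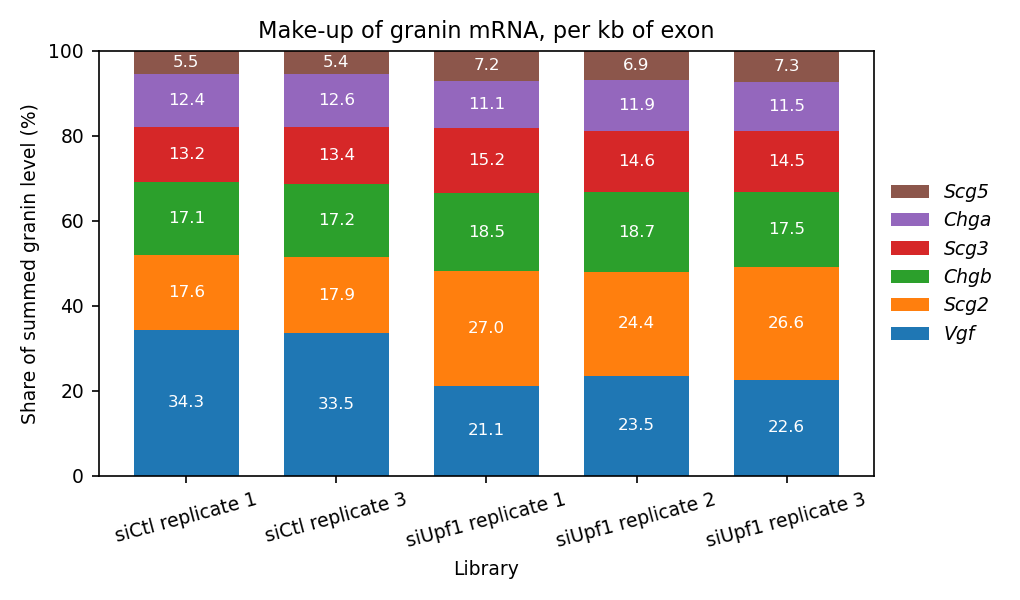
Share of each granin in the summed granin level of each library, in percent. Each stacked bar is 1 library and sums to 100%. The Vgf segment shrinks from 34.3% and 33.5% in siCtl to between 21.1% and 23.5% in siUpf1, and the Scg2 segment widens from 17.6% and 17.9% to between 24.4% and 27.0%.

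Of the processing enzymes, only Cpe was both abundant and changed. Cpe encodes carboxypeptidase E, which removes the basic residues left by the convertases, and lies on chromosome 8 (64592542 to 64693054, minus strand). It had 2163 and 2179 normalised counts in siCtl and 3053, 3125 and 2933 in siUpf1. Both groups were tight and far apart, and the log2 fold change was 0.48 (SE 0.057, adjusted p = 4.83e-16 by DESeq2). Pcsk2, a prohormone convertase on chromosome 2 (143546156 to 143816285, plus strand), had 64 reads in each siCtl library and 72, 52 and 74 in siUpf1. After scaling these were 67.1 and 60.4 against 64.0, 65.3 and 66.0 normalised counts, and the groups overlapped. The log2 fold change of Pcsk2 was 0.03 (SE 0.287, adjusted p = 0.945 by DESeq2) with a 95% interval of -0.53 to 0.59, so that the estimates of Cpe and Scg5 both lay inside the interval and a change of that size was not detectable at this depth. The antisense genes Pcsk2os1 and Pcsk2os2 overlap its exons, and reads were counted by strand. Pcsk1, the other neuroendocrine convertase, on chromosome 13 (75089826 to 75134861, plus strand), had 3 and 5 reads in siCtl and 6, 2 and 0 in siUpf1, too few to be tested.

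The mRNAs of Pcsk2 and of its partners thus differed widely in level. The level of Scg5 was 94.6 and 102 times that of Pcsk2, the convertase it serves, in siCtl, and 137, 132 and 129 times in siUpf1. The ratio of Cpe to Pcsk2 was 97.7 and 109 in siCtl and 145, 145 and 135 in siUpf1. Both ratios rest on 52 to 74 reads of Pcsk2 in a library, and with Cpe and Scg5 higher in siUpf1 and Pcsk2 not called, both are given as a description.

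Cadps, which primes dense-core vesicles for calcium-triggered fusion, lies on chromosome 14 (12372563 to 12823079, minus strand). It had 1 and 3 reads in siCtl and 7, 0 and 2 in siUpf1, and no fold change is given. Its paralog Cadps2 had 1 read in each siCtl library and 1, 1 and 3 in siUpf1. Thus neither gene of this family was measurable at this depth.

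The structure of the mRNAs was examined because NMD is known to act on transcripts with an exon junction well downstream of the stop codon, with a long 3′ untranslated region (3′ UTR) or with an upstream open reading frame. A representative transcript from GENCODE M21 was used for each gene, which may not be the one these cells use. None of the 10 had a junction more than 50 nt after its stop codon, a feature of 0.455% of the 12736 genes tested with such a transcript. The coding sequences of Scg2 and Vgf were not interrupted by any junction, since both genes carry the whole of it in 1 exon. Their 3′ UTRs were 482 nt and 512 nt, and those of the other granins and Cpe ran from 250 nt (Chgb) to 637 nt (Scg3), all below the median of 984 nt. The longest were those of Pcsk1 (2542 nt), Pcsk2 (2474 nt) and Cadps (1028 nt), the genes with few reads. An ATG upstream of the coding sequence occurred 5 times in Vgf, 2 times in Scg2 and 1 time each in Chgb, Scg3, Pcsk2 and Cadps. By this count 6 of the 10 genes had 1, against 51.6% of tested genes. GENCODE lists a transcript of NMD type for Scg3 (1 of 7) and Cadps (1 of 12), against 28.4% of tested genes with at least 1. Thus Scg2, which rose, and Vgf, which fell, both had an uninterrupted coding sequence and 3′ UTRs of similar length. They differed upstream of it. The 5′ untranslated region of Vgf was 468 nt long with 4 junctions, and that of Scg2 was 179 nt long with 1. Whether any of these features bears on their changes was not tested.

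The Upf1 siRNA can also act on other mRNAs through its seed, bases 2 to 8. No 3′ UTR of the 6 granins, Cpe, Pcsk2 or Cadps held a 7-base match to the seed of either siRNA strand. Pcsk1 held 1 for the antisense strand. Such matches occurred in 9.75% of tested genes for the sense strand and 7.62% for the antisense strand. Only the 3′ UTR of the representative transcript was searched, and the seed of the control siRNA was not. Whether either siRNA acted on these mRNAs through its seed was not tested.

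Acidic residues and pairs of basic residues were counted in the proteins, and the granins did not all stand out in them. Acidic residues made up 23.2% of the chromogranin B precursor, which exceeded 99.3% of the proteins of tested genes, 21.8% of chromogranin A, 20.3% of the VGF precursor, 19.8% of secretogranin III and 19.1% of secretogranin II. The median protein had 11.9%. The product of Scg5 had 14.6%, close to the 14.1% of CPE. Pairs of basic residues (KK, KR, RK or RR) include the usual convertase sites. They were counted with overlap over the whole protein, so a longer basic run counts more than once and the counts are not counts of sites. Such pairs numbered 23 in the chromogranin B precursor, 16 in that of VGF, 9 each in chromogranin A and secretogranin II and 7 each in the products of Scg3 and Scg5. Per 100 residues this was 3.40 for Chgb, 3.30 for Scg5, 2.59 for Vgf and 1.94 for Chga, against a median of 1.4925 for the proteins of tested genes. Scg3 (1.486) and Scg2 (1.459) lay just below that median. The granins with the largest increases, Scg2 and Scg5, encode the least acidic of the 6 products, an order over 6 genes that was not tested.

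Scg2 had the largest absolute fold change of the 10 genes, and the genes whose pattern was most like it over the 5 libraries were sought by Pearson's r of log2(normalised count + 1). Among the 10962 genes compared, whose mean normalised counts were 100 or more, the closest were Scn3b (r = 0.99992), a sodium channel subunit, Cnr1 (r = 0.99967), a cannabinoid receptor, and Gria2 (r = 0.99965), a glutamate receptor subunit. Their log2 fold changes were 0.69 (SE 0.069), 1.59 (SE 0.076) and 1.63 (SE 0.132). Since 502 genes had an r over 0.99, this likeness over 5 libraries of 2 groups is common and is only a description.

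Further genes of the secretory pathway were read from lists set up by textbook role. The counts of each list stand beside 22.0% higher, 22.9% lower and a median log2 fold change of -0.0024 over all genes tested. They describe the lists and were not tested. Of 15 other genes of prohormone processing, 12 were tested, of which 6 were higher and 2 lower, with a median log2 fold change of 0.23. Without siCtl replicate 3, 3 were higher. Pcsk6, a convertase of the constitutive pathway, rose by 0.67 (SE 0.076, adjusted p = 1.35e-17 by DESeq2), from 927 and 930 normalised counts to 1463, 1548 and 1432. The carboxypeptidase gene Cpm rose by 0.54 (SE 0.113). Pcsk1n, whose product inhibits the convertase encoded by Pcsk1, rose by 0.30 (SE 0.088, adjusted p = 0.00203), while Pcsk1 mRNA had at most 6 reads in a library. The aminopeptidase gene Rnpep (-0.45, SE 0.076) and Ctsl, which encodes the protease cathepsin L (-0.36, SE 0.060), were lower.

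All 18 genes of vesicle formation and membrane were tested, with 6 higher and 6 lower and a median of -0.12. Without siCtl replicate 1, siCtl replicate 3 or siUpf1 replicate 2, 3 were lower. The vesicular monoamine transporters moved in opposite directions. Slc18a2 rose from 1143 and 1103 normalised counts to 2780, 2395 and 2544 (log2 fold change 1.20, SE 0.074, adjusted p = 1.78e-57 by DESeq2). Slc18a1, the form typical of chromaffin cells, was at 105 and 74.5 in siCtl and at 27.6, 31.4 and 26.7 in siUpf1 (-1.66, SE 0.335, adjusted p = 3.98e-06). Hid1, needed for the sorting of dense-core vesicle cargo at the Golgi, rose by 0.86 (SE 0.062), and Ptprn2, which encodes a transmembrane phosphatase-like protein of the vesicle, rose by 0.64 (SE 0.136). The small GTPases of the maturation step, Rab2a (-0.76, SE 0.061) and Rab2b (-0.37, SE 0.124), were both lower.

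Of 37 genes of vesicle docking and release, the longest list, 27 were tested, 15 of them higher and 4 lower, with a median of 0.39. Rab3a, a GTPase of docked vesicles, rose from 291 and 278 normalised counts to 736, 728 and 680 (log2 fold change 1.33, SE 0.112, adjusted p = 1.26e-30 by DESeq2). The calcium sensors Syt1 (0.80, SE 0.057) and Syt7 (0.76, SE 0.073) were higher. Unc13d, a priming factor best known from blood cells (-0.97, SE 0.158), Rph3al, a RAB effector of exocytosis (-0.73, SE 0.222), and Nsf, the ATPase that takes SNARE complexes apart (-0.30, SE 0.062), were lower.

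Apart from the granins, which are peptide precursors themselves, most peptide and growth factor genes on the list had few or no reads. Of 35 neuropeptide, hormone and neurotrophin genes, 25 were not tested, 24 of them had at most 10 reads in every library, and 8 had none at all. Of the 10 tested, 2 were higher and 1 lower, with a median of 0.01, and without siCtl replicate 1 only 1 was higher. Adm (adrenomedullin) rose from 31.4 and 28.3 normalised counts to 91.6, 81.6 and 113 (log2 fold change 1.68, SE 0.317, adjusted p = 6.14e-07 by DESeq2). Npy (neuropeptide Y) rose from 94.3 and 99.1 to 157, 174 and 144 (0.70, SE 0.211, adjusted p = 0.00255). Nucb2, the precursor of nesfatin, fell from 811 and 873 to 499, 461 and 500 (-0.79, SE 0.0997, adjusted p = 3.13e-14).

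Markers of the cell line moved too. Of the 11 neuroblastoma markers tested, 6 were higher and 3 lower, with a median of 0.39, and without siCtl replicate 1 only 1 was lower. The transcription factor gene Isl1 rose from 419 and 455 normalised counts to 1627, 1447 and 1487 (log2 fold change 1.80, SE 0.091, adjusted p = 6.32e-85 by DESeq2). Dbh, which encodes the vesicle enzyme that makes noradrenaline, rose by 1.62 (SE 0.187). Uchl1 (-0.41, SE 0.048), Stmn2 (-0.16, SE 0.048) and Gata2 (-0.12, SE 0.047) were lower. Of the 5 markers of other cells tested, none was higher and 1 was lower, Pdgfra (-0.47, SE 0.182, adjusted p = 0.0241), with a median of -0.36. That call was lost when any 1 of the 5 libraries was left out. The part that these shifts have in the changes of the granins was not tested.

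**Figure D5:**
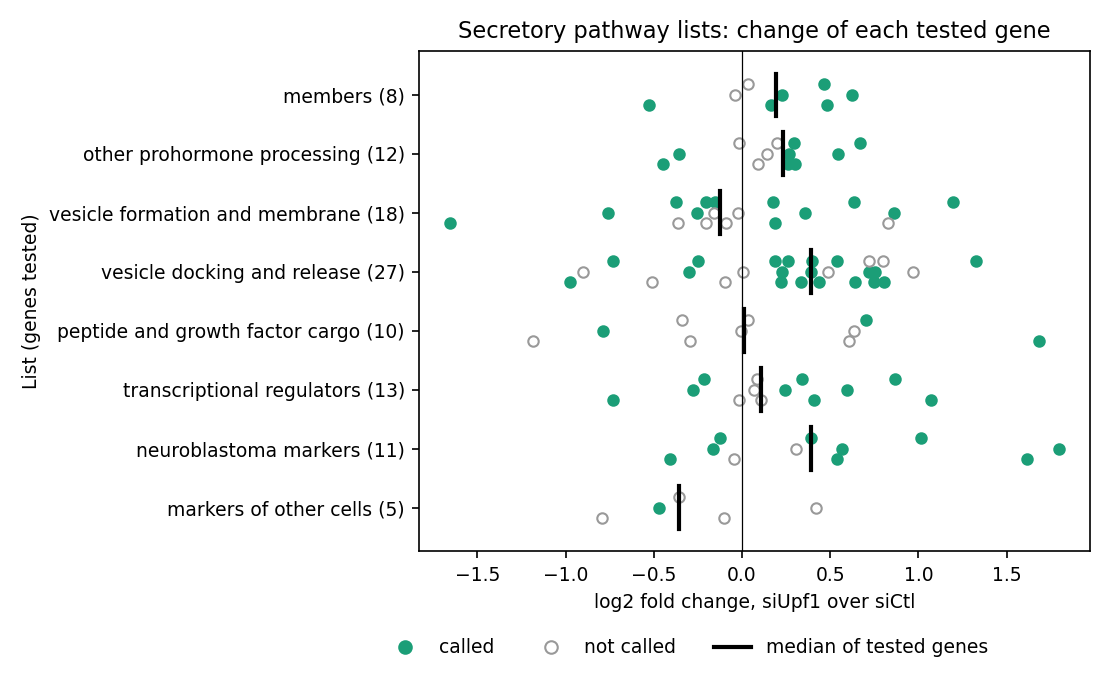
Log2 fold change of siUpf1 over siCtl for every tested gene of the lists, with the number tested in parentheses; the top row holds the 8 tested granin and dense-core vesicle genes described above. Each point is 1 gene, filled if called at an adjusted p-value under 0.05 and open if not, and the black bar is the median of the list. The medians run from -0.36 for markers of other cells to 0.39 for docking and release and for neuroblastoma markers.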

How the data were processed

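Poly(A)-selected, strand-specific RNA-seq of siCtl (n = 2) and siUpf1 (n = 3) N2A cells was analysed. The authors deposited raw read counts per gene, which they made by trimming with fastp, mapping to GRCm38.p6 with STAR (version 2.7.0f per the submitters' processing notes) and counting, by strand, those over exons of GENCODE M22 or M25 with featureCounts (Subread 1.6.4). The counts were neither normalised nor pooled, and columns of other samples numbered 0. Libraries held 20402205 to 27717594 assigned reads, and counting error is the least error of a value.

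Groups came from the sample labels. The labels do not say whether replicates were separate cultures, so p-values measure the spread between these libraries. Replicate pairs differed by more than sampling noise (chi-square per degree of freedom 5.65 to 23.3) and each was counted. The groups share replicate numbers 1 and 3, but the deviations of same-numbered libraries from their group means did not correlate across 11898 genes (r = -0.0861 and -0.0748), so they were not treated as pairs.

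As in the study's methods, DESeq2 was the main test, here in version 1.42.0 under R 4.3.3. Its Wald test compared the groups with no other term and with its default size factors (median of ratios) and independent filtering, and p-values were adjusted by Benjamini-Hochberg over all 15191 genes tested. Alternatives were edgeR's quasi-likelihood test (4.0.16), TMM or total-count size factors, a minimum of 10 counts in 2 libraries, no filter, shrinkage of fold changes, a block for the replicate number and the omission of each library. The summed granin level and the summed granin normalised counts were compared by an exact permutation test. Scripts were tested on simulated data.

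The 10 genes and the 7 further lists (143 genes) were chosen with earlier results of these data known. Named from each list were the up to 3 called genes with the largest and the up to 3 with the smallest fold change, among those whose mean normalised counts reached 50 and whose groups did not overlap. Creb1, Atf1, Crtc1, Crtc3, Rcor1, Rcor3, Sin3a, Cadps2, Nefl and Nefm fall outside that rule, as do the markers named as nearly absent. All of these were chosen after their values were seen. One gene that the rule picks from the lists is not reported here. Gene models and transcript features came from GENCODE M21, where 99.7% of the identifiers and all 10 genes were found. Promoters came from RefSeq (GRCm38.p6).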

Additional observations from a re-analysis of the deposited data

How the results depend on the processing

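The fold changes of Scg2, Vgf, Scg5 and Cpe kept their direction and stayed called under every alternative run, with adjusted p-values of at most 0.000897, and Chga was never called. The replicate number was also used as a block, which the libraries do not bear out as a pairing. Replicate 2 occurs only in siUpf1, so under this block the comparison of the groups rests on replicates 1 and 3. With the block, 3 of the 10 genes were higher in place of 5, and calls over all genes fell from 6822 to 3919. Chgb (0.12, adjusted p = 0.330 by DESeq2) and Scg3 (0.21, adjusted p = 0.0658) were lost. In the lists the block left 3 processing genes higher, 3 formation genes higher and 3 lower, 2 release genes lower, 1 cargo gene higher, 1 regulator lower, 1 neuroblastoma marker lower and 0 markers of other cells lower. edgeR called 2 cargo genes lower. With each library left out in turn, 4 to 5 of the 10 genes were higher and 1 was lower, Chgb ranged from 0.12 to 0.22, and Pcsk2, never called, from -0.0461 (without siCtl replicate 3, the direction being reversed) to 0.10. Over the same omissions, 3 to 6 processing genes were higher, 3 to 5 formation genes were lower, 1 to 2 cargo genes were higher, 1 to 3 neuroblastoma markers were lower and 0 markers of other cells were lower. Scaled to the total count of each library, the siCtl levels of all 10 genes were slightly lower. This rescaling changes every gene of a library by the same factor. For Scg2 (102.7), Chgb (99.04), Scg3 (76.63) and Cpe (32.98) the step was larger than their small SD. The cause of the lost or changed calls was not tested. Of all values recomputed, 275 kept their direction and call or stayed within their spread and 31 did not.

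Only 2 siCtl libraries set the spread of the control group. Pcsk2, read 52 to 74 times in a library, had a 95% interval of -0.53 to 0.59, so that a log2 change within it was not detectable. Pcsk1 and Cadps, read at most 7 times, were not tested.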

Other observations

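Regulators that are known to act on granin genes were measured in the same libraries. They were listed by role as the repressor REST and its co-repressors, CREB-type activators and their coactivators, and neuroendocrine transcription factors. Of the 15 genes, 13 were tested, 6 were higher in siUpf1 and 3 lower, with a median log2 fold change of 0.11. Of all genes tested, 22.0% were higher and 22.9% lower. Among the CREB-type factors, Crem rose from 115 and 120 normalised counts in siCtl to 249, 247 and 246 in siUpf1 (1.07, SE 0.175, DESeq2 adjusted p = 6.52e-09). Crtc2, which encodes a CREB coactivator, fell from 2208 and 2265 to 1948, 1948 and 1891 (-0.21, SE 0.060, adjusted p = 0.00132). Creb1 itself, named after its values were seen, was at 1238 and 1381 in siCtl and at 1540, 1293 and 1392 in siUpf1, and the groups overlapped. Atf1 (0.41, SE 0.078) and the coactivator gene Crtc1 (0.34, SE 0.081) were higher, and Crtc3 (0.084, SE 0.083) was not called. Like Creb1, these were named after their values were seen.

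On the REST side, Rest fell from 1847 and 1696 normalised counts to 1465, 1367 and 1547 (-0.28, SE 0.074, adjusted p = 0.000678). The co-repressor gene Rcor2 fell from 2790 and 2802 to 1652, 1748 and 1662 (-0.73, SE 0.060, adjusted p = 4.80e-32). The other co-repressor genes on the list did not fall with it. Rcor3 was higher (0.24, SE 0.063, adjusted p = 0.000506 by DESeq2), and Rcor1 (-0.016, SE 0.066) and Sin3a (0.065, SE 0.056) were not called. Srrm4, a neural splicing factor known to inactivate REST by alternative splicing, rose from 1567 and 1386 to 2085, 2137 and 2456 (0.59, SE 0.080, adjusted p = 1.68e-12). Insm1, a zinc-finger factor of neuroendocrine cells, rose from 668 and 747 to 1260, 1383 and 1241 (0.87, SE 0.087, adjusted p = 7.33e-22). Whether any of them bears on the granin mRNAs was not tested.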
